A study of Thermothelomyces thermophilus with 4 samples.

Results

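The genes described here are the 117 transcripts of the thermophilic fungus Myceliophthora thermophila (Thermothelomyces thermophilus) that were higher on both dicot straws than on both cereal straws, and at similar levels on the dicot straws themselves. They were drawn from 9110 gene models, 8230 of which had a mean level of at least 1 FPKM (reads scaled by gene length and library total) over the 4 libraries. A gene was chosen when the lower of canola and flax was at least 2-fold above the higher of oat and triticale, and when canola over flax lay above 0.5 and below 2, all on the scale of FPKM + 1. This rule selected 1.42% of the 8230 genes. The members were therefore picked by the values given below for dicot against cereal straws, and those values are a description without a test.

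The fungus was grown as a shaken culture at 45 °C and 150 rpm with 2% straw as carbon source, and poly(A) RNA of the mycelium was sequenced. The dicot group held 1 canola culture taken after 30 h and 1 flax culture taken after 24 h. The cereal group held 1 oat and 1 triticale culture, both taken after 24 h. The canola culture was grown longer, and this time difference cannot be told apart from the straw. No straw had a replicate culture, so no value has a replicate error. Libraries held 7977329 (canola), 7955444 (flax), 7308467 (oat) and 6495371 (triticale) reads assigned to genes, and intervals given here are 95% counting intervals that do not cover differences between cultures.

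Straw is made of cellulose fibres in a matrix of hemicellulose, pectin and lignin. Walls of grasses such as oat and triticale are rich in arabinoxylan and poor in pectin. Walls of dicots such as canola and flax hold more pectin and xyloglucan, and flax stems carry cellulose-rich bast fibres. Fungi of this kind secrete hydrolases, lyases and oxidative enzymes against these polymers, and take up the released sugars through membrane transporters. Only 6 of the 9110 models carry a gene symbol in the annotation used here, so 116 of the 117 members are given by locus tag and no role is assigned to them.

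Together the 117 genes took 1.38% (canola) and 1.42% (flax) of reads, against 0.420% (oat) and 0.265% (triticale). Their median level was 24.8 (canola) and 22.9 (flax) FPKM, against 7.98 (oat) and 3.56 (triticale). Over all 8230 genes the medians were 22.2 and 21.8 FPKM on the dicot straws, against 21.5 and 16.6 on oat and triticale. On the dicot straws the members thus sat near the middle of the transcriptome, while on the cereal straws they lay below it. On both cereal straws 72 of the 117 members (61.5%) were under 10 FPKM, as were 26.4% of all genes tested. At or above 100 FPKM on both dicot straws were 11 of the 117 members (9.40%), close to the 857 of the 8230 genes tested (10.4%). Under 10 FPKM on both dicot straws were 14 members (11.97%), against 1774 of all genes tested (21.6%). The median ratio of the dicot mean to the cereal mean was 4.02 for the members and 1.09 for all genes tested, both of FPKM.

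**Figure D1:**
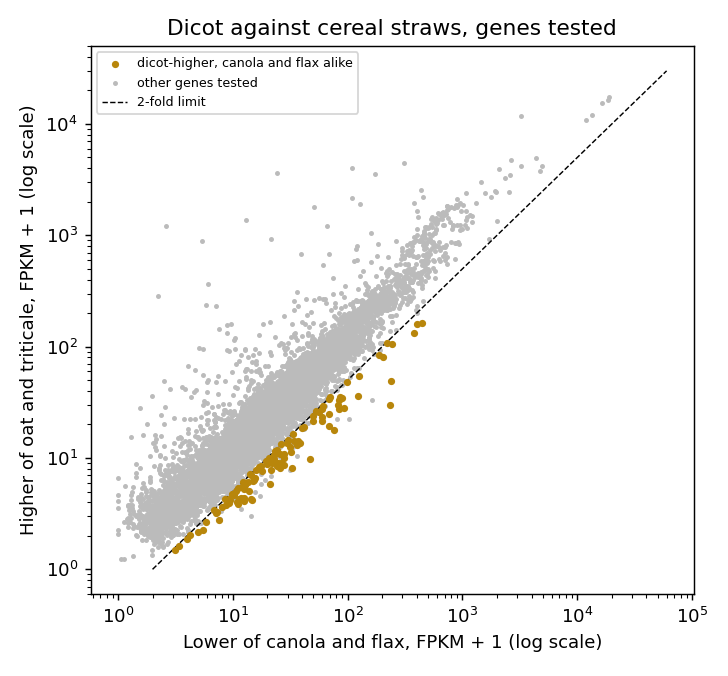
The lower of canola and flax (x axis) is plotted against the higher of oat and triticale (y axis), both as FPKM + 1 on log scales, for the 8230 genes tested. The 117 members (gold) lie at and below the dashed 2-fold line, from low to high levels, and most lie close to it: 45 of them reach 2.5-fold and 5 reach 4-fold.

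Few members lay far beyond the limit that chose them. The gap between the straw classes, the lower dicot value over the higher cereal value on the scale of FPKM + 1, had a median of 2.30 and quartiles of 2.14 and 2.75. A gap of 3-fold was reached by 15 members and a gap of 4-fold by 5, while 0.109% of all genes tested reached 4-fold. The widest gap was that of MYCTH_112322, with 233 (canola) and 255 (flax) FPKM, against 29.2 (oat) and 17.8 (triticale). Its gap was 7.76, and the FPKM ratio of canola to oat was 7.99 (7.21 to 8.87).

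MYCTH_2298071 had the second widest gap, 4.91, with 240 (canola) and 254 (flax) FPKM, against 43.8 (oat) and 48.0 (triticale). Here the cereal straws lay within counting error of each other. MYCTH_80274 had 46.2 (canola) and 55.5 (flax) FPKM, against 8.87 (oat) and 5.57 (triticale), a gap of 4.78. MYCTH_2307785 had 77.7 (canola) and 75.01 (flax) FPKM, against 16.8 (oat) and 7.02 (triticale), a gap of 4.26. MYCTH_73708 completed the 5 genes past 4-fold, with 31.5 (canola) and 36.1 (flax) FPKM, against 7.05 (oat) and 2.71 (triticale). In the last 3 genes triticale gave the lowest value and oat lay between triticale and the dicot straws.

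Among the next widest, with gaps between 3.24 and 3.62, MYCTH_2297177 had 20.04 (canola) and 21.7 (flax) FPKM, against 4.81 (oat) and 2.30 (triticale). MYCTH_60632 had 68.0 (canola) and 81.1 (flax) FPKM, against 18.3 (oat) and 6.49 (triticale). MYCTH_2295353 had 17.2 (canola) and 13.6 (flax) FPKM, against 3.21 (oat) and 1.66 (triticale). These 3 genes had the same order of the cereal straws as most members, oat above triticale. MYCTH_2309375 was at 155 (canola) and 122 (flax) FPKM, against 33.9 (oat) and 35.1 (triticale). MYCTH_2303301 was at 13.7 (canola) and 13.5 (flax) FPKM, against 3.33 (oat) and 2.16 (triticale). Levels of MYCTH_2303301 on canola and flax differed by less than counting error, with a ratio of 1.01 (0.838 to 1.22). MYCTH_2306943 was at 170 (canola) and 92.2 (flax) FPKM, against 19.5 (oat) and 27.3 (triticale). MYCTH_61543 was at 52.2 (canola) and 27.0 (flax) FPKM, against 7.65 (oat) and 3.77 (triticale). In both, canola stood close to the upper limit that the rule sets over flax.

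**Figure D2:**
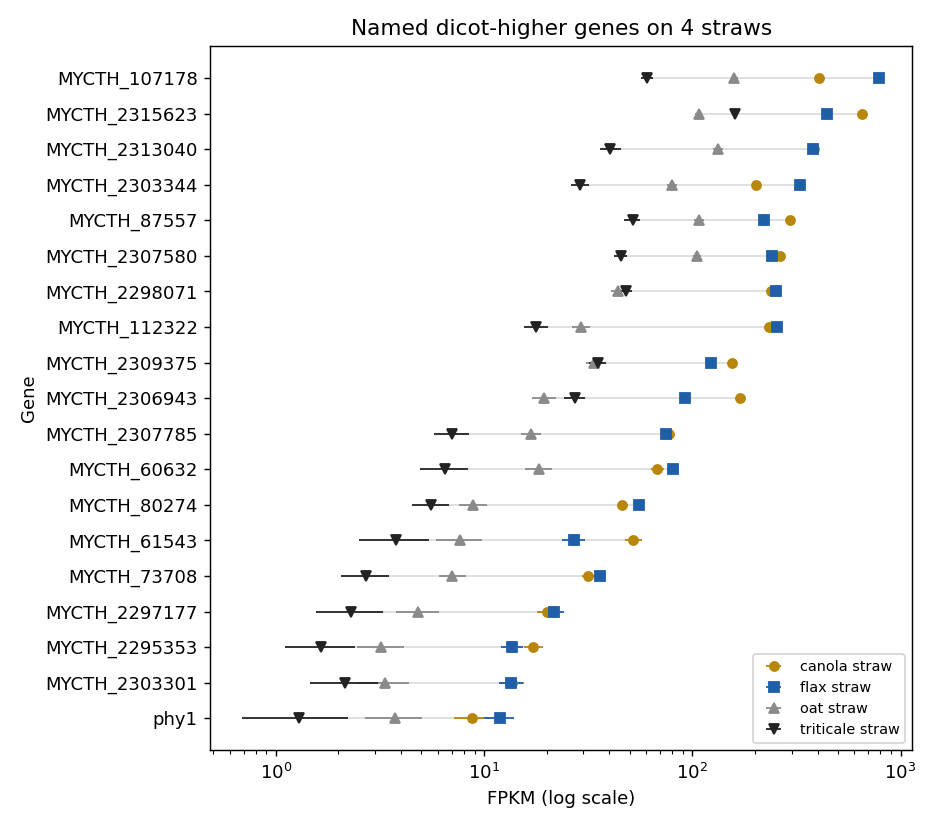
FPKM on a log scale (x axis) of the members with the widest gaps, the 8 members with the highest dicot means and phy1 (y axis, ordered by mean level on the dicot straws), with 1 point per straw and bars for the 95% counting interval. In every gene shown both dicot points lie to the right of both cereal points, and triticale is the lowest point in all but MYCTH_2315623, MYCTH_2298071, MYCTH_2309375 and MYCTH_2306943.

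The 8 members with the highest mean FPKM over the dicot straws carried 44.4% (canola) and 46.0% (flax) of the members' reads, against 39.3% (oat) and 42.2% (triticale). Without them the remaining 109 genes took 0.767% (canola) and 0.768% (flax) of reads, against 0.255% (oat) and 0.153% (triticale). MYCTH_107178 had the highest mean FPKM over the dicot straws, with 404 (canola) and 789 (flax) FPKM, against 159 (oat) and 60.7 (triticale). It was also the member nearest to the lower limit of canola over flax, at 0.513. MYCTH_2315623 had 656 (canola) and 442 (flax) FPKM, against 107 (oat) and 161 (triticale). MYCTH_2313040 was level on the dicot straws, with 386 (canola) and 381 (flax) FPKM, against 133 (oat) and 40.4 (triticale).

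MYCTH_2303344 had 203 (canola) and 330 (flax) FPKM, against 79.7 (oat) and 29.0 (triticale). MYCTH_87557 had 294 (canola) and 221 (flax) FPKM, against 108 (oat) and 51.6 (triticale). MYCTH_2307580 had 262 (canola) and 241 (flax) FPKM, against 106 (oat) and 45.4 (triticale). In these 3 genes oat was more than 2-fold above triticale, so the gap to flax or canola was set by oat. MYCTH_112322 and MYCTH_2298071, described above for their gaps, complete the 8.

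The member with a gene symbol was phy1, which encodes a phytase, an enzyme that releases phosphate from phytate, the phosphate store of plant seeds and grains. It had 8.76 FPKM on canola (7.19 to 10.6) and 11.9 on flax (10.03 to 13.97), against 3.72 on oat (2.68 to 5.03) and 1.30 on triticale (0.690 to 2.22). These levels rested on 108 and 146 reads on the dicot straws, against 42 and 13 reads on the cereal straws. No counting interval of a dicot straw overlapped that of a cereal straw. The gap of phy1 was 2.07, near the 2-fold limit, and the FPKM ratio of canola to oat was 2.36 (1.64 to 3.45). Flax was above canola in phy1, with a ratio of canola to flax of 0.738 (0.570 to 0.953).

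The cereal straws did not enter the rule separately, and within the members they differed in mostly the same direction. Oat was above triticale in 105 of the 117 members (89.7%), while 60.9% of all genes tested were higher on oat. At 2-fold or more, oat was above triticale in 40 members (34.2%), against 14.2% of all genes tested, and triticale was above oat in 1 member, against 0.352%. The median ratio of oat to triticale was 1.65 in the members (quartiles 1.38 and 2.17) and 1.14 over all genes tested, on the scale of FPKM + 1. Counting intervals of the FPKM ratio of oat to triticale lay above 1 in 87 members (74.4%), against 44.1% of all genes tested. They lay below 1 in 3 members (2.56%), against 22.7% of all genes tested, and included 1 in 27. The rule needs both cereal values to be low against the dicot values, with no limit on their level itself. Most members had oat levels below the median of all genes tested. At the members' oat levels the share of all genes at least 2-fold higher on oat was larger. Of the 2720 genes tested whose oat level fell between the members' quartiles of oat level (4.09 to 18.3 FPKM), 23.6% were at least 2-fold higher on oat, against 25 of the 59 members in that range (42.4%). How much of the members' share comes from the choice by cereal values low against the dicot values was not tested. The median gene on triticale lay 0.14 below its mean over the 4 straws on the log2 scale. After this shift was removed, 21 of 108 members were at least 2-fold higher on oat (19.4%), against 7.98% of all genes tested, and once each library's trend with level was taken out 15 of 91 (16.5%), against 4.70%. When the library medians were set equal, the count was 8 of 94 (8.51%), against 3.85%.

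**Figure D3:**
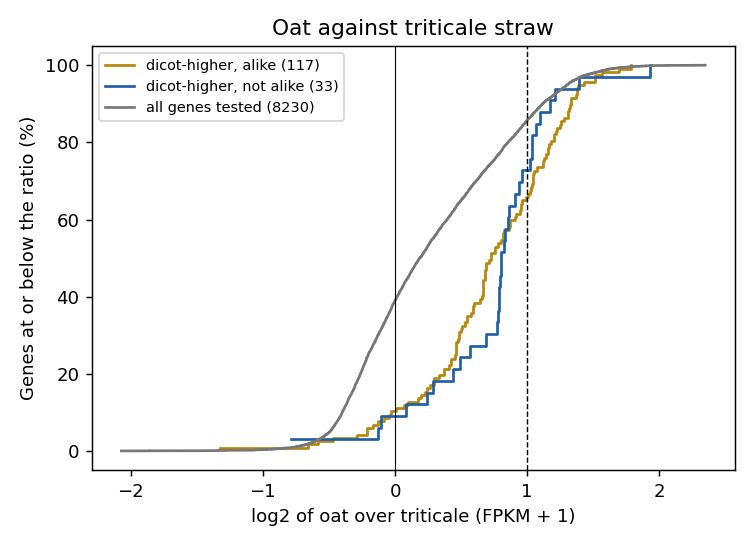
Cumulative share of genes (y axis, percent) at or below a given log2 ratio of oat over triticale on the scale of FPKM + 1 (x axis), for the 117 members, the 33 other dicot-higher genes and all 8230 genes tested. Both dicot-higher curves lie to the right of the curve of all genes, and 34.2% of the members lie beyond the dashed 2-fold line.

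On the scale of FPKM + 1, and among members with at least 2 FPKM on the higher cereal straw, the 3 with the highest oat over triticale were MYCTH_2302215, MYCTH_2313040 and MYCTH_2307924. On plain FPKM, the scale of the ratios given here, MYCTH_2308692 (3.69), MYCTH_2106821 (3.55) and MYCTH_2308489 (3.30) also stood above MYCTH_2313040. MYCTH_2302215 had 36.8 (canola) and 32.2 (flax) FPKM, against 15.5 (oat) and 3.79 (triticale), and its ratio of oat to triticale was 4.10 (3.11 to 5.49). For MYCTH_2313040 the ratio of oat to triticale was 3.29 (2.89 to 3.75). MYCTH_2307924 had 40.1 (canola) and 27.0 (flax) FPKM, against 8.99 (oat) and 2.38 (triticale), and its ratio of oat to triticale was 3.78 (2.17 to 6.98). In each of the 3, oat lay between triticale and the dicot straws. MYCTH_2307981 had 2.96 (canola) and 5.52 (flax) FPKM, against 0.890 on oat and 0 reads on triticale. For this gene a count of 0 has a counting interval that reaches up to 0.462 FPKM on triticale.

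The opposite order, triticale above oat, was seen in 12 members (10.3%), against 39.1% of all genes tested. Their median of the mean dicot level was 74.4 FPKM, against 23.3 in the other 105 members. At or above 50 FPKM on both dicot straws were 7 of the 12, against 22 of the 105. The same values were not computed for all genes tested with triticale above oat. Whether the contrast is particular to the members was therefore not tested. Over all genes tested the lower quartile was 8.95 (oat) and 5.57 (triticale) FPKM, and the upper quartile 48.4 (oat) and 47.1 (triticale). The quartiles of the cereal libraries thus lay apart mainly at low levels, which does not show which genes differed. Whether the levels of the 12 go beyond this difference between the libraries was not tested. Counting intervals lay below 1 in 3 of the 12. MYCTH_2315623 had a ratio of oat to triticale of 0.666 (0.633 to 0.702). MYCTH_2306943 had a ratio of 0.714 (0.596 to 0.856). MYCTH_102965 had 29.0 (canola) and 34.2 (flax) FPKM, against 8.15 (oat) and 13.5 (triticale), a ratio of oat to triticale of 0.605 (0.463 to 0.787). In the other 9 the cereal straws lay within counting error of each other. MYCTH_2308119, for example, had 68.0 (canola) and 76.8 (flax) FPKM, against 20.6 (oat) and 24.0 (triticale). MYCTH_2296305 had 88.9 (canola) and 112 (flax) FPKM, against 33.1 (oat) and 33.8 (triticale). Neither gene differed between the cereal straws beyond counting error. MYCTH_2125197, the member at least 2-fold higher on triticale, is a model of 386 bases with 1 read on oat and 6 on triticale.

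On the dicot straws the members were split evenly by direction, with 59 higher on canola (50.4%, against 48.2% of all genes tested) and 58 higher on flax. The median ratio of canola to flax was 1.002, with quartiles of 0.818 and 1.26 on the scale of FPKM + 1, against 0.790 and 1.28 over all genes tested. The rule bounds this ratio, so its spread is not a result. Counting intervals of the FPKM ratio included 1 in 40 members, lay above 1 in 36 (30.8%) and below 1 in 41 (35.0%). The shares over all genes tested were close to these, with 31.5% above 1 and 32.9% below 1. MYCTH_107178 and MYCTH_107095 were nearest to the limit at 0.5, the second of them with 23.1 (canola) and 45.4 (flax) FPKM, against 9.98 (oat) and 4.22 (triticale). Nearest to the limit at 2 was MYCTH_2307236, with 101 (canola) and 51.9 (flax) FPKM, against 21.6 (oat) and 25.2 (triticale). It was followed by MYCTH_2303709, with 19.9 (canola) and 9.87 (flax) FPKM, against 3.06 (oat) and 0.960 (triticale). Just outside these limits lay MYCTH_83025, at 0.499, and MYCTH_2304268, at 2.01. The median of oat over triticale was 1.64 in the members higher on canola and 1.67 in those higher on flax. At least 2-fold higher on oat than on triticale were 19 of the 59 higher on canola and 21 of the 58 higher on flax.

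**Figure D4:**
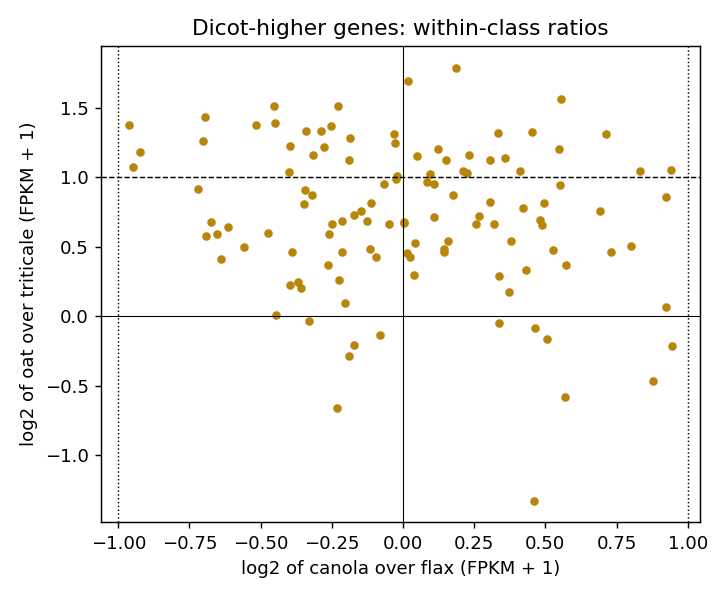
Log2 ratio of canola over flax (x axis) and of oat over triticale (y axis), both of FPKM + 1, with 1 point for each of the 117 members. Dotted lines mark the limits that the rule sets on canola over flax and the dashed line 2-fold for oat over triticale; points lie on both sides of 0 on the x axis, and 105 of 117 lie above 0 on the y axis.

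Many members stood close to the 2-fold limit. MYCTH_2295502 and MYCTH_2055104 were the nearest inside, both with a gap of 2.00. MYCTH_2295502 had 8.96 (canola) and 7.53 (flax) FPKM, against 3.26 (oat) and 1.09 (triticale). MYCTH_2055104 had 13.2 (canola) and 17.8 (flax) FPKM, against 6.11 (oat) and 2.05 (triticale). Just outside were MYCTH_2307600, with 88.9 (canola) and 93.2 (flax) FPKM, against 44.0 (oat) and 25.7 (triticale), and MYCTH_2311481, with 11.5 (canola) and 8.78 (flax), against 3.90 (oat) and 1.57 (triticale). The counting intervals of the FPKM ratio of the lower dicot to the higher cereal straw overlapped for all 4, from 1.85 to 2.21 for MYCTH_2307600 and from 1.56 to 3.48 for MYCTH_2295502. With a pseudocount of 10 the rule chose 29 genes, and at a 3-fold limit 15. Without oat it chose 1235, without canola 369 and without flax 519, since it then has fewer values to clear. Without canola or flax the limit on canola over flax fell away too. Those counts therefore compare with the 150 genes chosen without that limit. Over the members, the counting interval of the lower dicot over the higher cereal FPKM lay above 1 in 115 and above 2 in 59, as the rule favours; over all genes tested it did so in 14.6% and 0.911%.

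The 2 members whose interval included 1 were the short models MYCTH_2125197 and MYCTH_2062976. MYCTH_2062976 is 165 bases long and had 11 (canola) and 18 (flax) reads, against 4 (oat) and 2 (triticale). Reads per member had a median of 376 (canola) and 357 (flax), against 113 (oat) and 45 (triticale). Fewer than 20 reads on at least 1 cereal straw were counted for 24 members, so their cereal levels are known only coarsely. The members had a median length of 1945 bases (quartiles 1504 and 2413), against 1797 (1232 and 2499) for all genes tested, and 4 were shorter than 600 bases.

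Some members lay next to each other in the gene order of the RefSeq assembly ASM22609v1. Of the 206 tested genes directly beside a member, counted once for each side, 12 were members themselves (5.83%), while members made up 1.42% of all genes tested. Over all 234 genes beside a member, tested or not, the share was 5.13%. It was 2.60% with a mean of at least 10 FPKM, 3.16% with upper-quartile scaling and 3.45% with a pseudocount of 10. At the 3-fold limit it was 0%, and at the 1.5-fold limit 10.8%. Members made up 1.28%, 1.15%, 0.352%, 0.182% and 4.87% of the genes tested under these settings, in the same order. The share of neighbours was 10.0% without the limit on canola over flax, 17.7% without canola, 17.2% without flax and 19.3% without oat. In these settings the rule chose more genes, 1.82%, 4.48%, 6.31% and 15% of those tested, in the same order. Without canola or flax the limit on canola over flax fell away as well. The shares of neighbours under these and the earlier settings are over all genes beside a member, tested or not. The shares of genes chosen are over tested genes only, so they are not on the same base. The 12 neighbours that were members came from 6 adjacent pairs that held 11 members. The RefSeq spans of the genes in these pairs did not overlap. Counted once each, the tested genes directly beside a member that were not members themselves numbered 193. Both dicot straws were above both cereal straws in 89 of these 193 (46.1%), against 2164 of the 8113 tested non-members (26.7%) and 27.7% of all genes tested, and the gap was at least 1.5-fold in 25 (13.0%), against 347 (4.28%). Their median log2 difference between dicot and cereal straws was 0.40, against 0.10 for all tested non-members. Reads running over from one gene into the next were not tested as a source of these shares.

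In 4 of the pairs no further member lay directly beside the 2 genes. MYCTH_2298064, with 187 (canola) and 227 (flax) FPKM, against 83.3 (oat) and 35.2 (triticale), lay next to MYCTH_2298071. The neighbours on either side of this pair, MYCTH_98318 and MYCTH_2115670, were at 1.47 and 2.30 FPKM on canola and 2.24 and 4.71 on flax, against 1.46 and 2.46 on oat and 1.25 and 0.980 on triticale. These flanking genes were far lower than the pair on every straw. MYCTH_2297847 had 49.4 (canola) and 52.8 (flax) FPKM, against 22.8 (oat) and 16.7 (triticale). Its neighbour MYCTH_2297849 had 17.1 (canola) and 18.0 (flax) FPKM, against 6.63 (oat) and 2.95 (triticale). MYCTH_112805 and MYCTH_104717, the longest pair at 7835 and 4312 bases, were low on all straws: 2.11 and 4.48 FPKM on canola and 3.10 and 6.62 on flax, against 0.489 and 1.27 on oat and 0.275 and 0.4999 on triticale. MYCTH_2303738 had 10.0 (canola) and 11.4 (flax) FPKM, against 2.88 (oat) and 1.34 (triticale). Its neighbour MYCTH_115944 had 16.02 (canola) and 19.2 (flax) FPKM, against 7.35 (oat) and 4.28 (triticale).

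The other 2 pairs share a gene and form the stretch richest in members. MYCTH_81364, MYCTH_2303709 and MYCTH_50920 follow each other in gene order, and MYCTH_2062976 lies 3 genes further on. MYCTH_81364 had 22.9 (canola) and 11.6 (flax) FPKM, against 3.39 (oat) and 3.19 (triticale). MYCTH_50920 had 85.6 (canola) and 99.4 (flax) FPKM, against 34.5 (oat) and 24.8 (triticale). The next gene, MYCTH_48716, had 35.0 (canola) and 6.86 (flax) FPKM, against 2.36 (oat) and 0.884 (triticale), and missed membership because canola was far above flax. MYCTH_2303702, 3 genes before MYCTH_81364, missed it for the same reason, with 25.9 (canola) and 9.58 (flax) FPKM, against 3.997 (oat) and 2.56 (triticale). In the 9 consecutive genes that begin 5 before MYCTH_81364 and end with MYCTH_48716, both dicot straws were above both cereal straws in 8. This held in 27.7% of all genes tested. The 8 include the 3 adjacent members, MYCTH_48716 and MYCTH_2303702, whose 2-fold gaps already fix this order. The ends of the 9 were chosen after the values were seen. The gene after MYCTH_48716, MYCTH_107763, was highest on triticale and lowest on flax, with 46.9 (canola) and 9.49 (flax) FPKM, against 34.9 (oat) and 95.1 (triticale). MYCTH_2303738 and MYCTH_115944 lie 23 and 24 genes beyond MYCTH_81364, and MYCTH_2303755, with 59.3 (canola) and 87.9 (flax) FPKM against 20.3 (oat) and 14.1 (triticale), lies 31 beyond it. From MYCTH_81364 to MYCTH_2303755 there are thus 7 members among 28 genes tested. This stretch was chosen for its members, and no test was made on it.

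**Figure D5:**
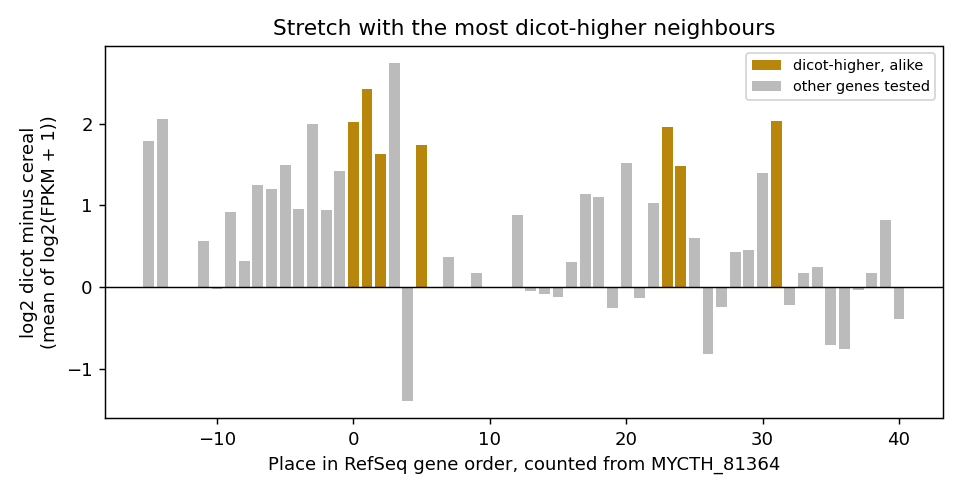
Difference between dicot and cereal straws (y axis, mean of log2(FPKM + 1) on canola and flax minus that on oat and triticale) for the tested genes around MYCTH_81364, in RefSeq gene order (x axis, 0 at MYCTH_81364). Members are gold and other tested genes grey; the bars are positive from 9 genes before 0 up to MYCTH_48716, and MYCTH_107763 directly after it is at -1.39.

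Without the limit on canola over flax, 150 genes (1.82% of those tested) were at least 2-fold higher on both dicot straws, so 33 were left out because canola and flax were at least 2-fold apart, 20 higher on canola and 13 higher on flax. The 33 took 0.714% (canola) and 0.735% (flax) of reads, against 0.132% (oat) and 0.0765% (triticale). Their median ratio of the dicot mean to the cereal mean was 7.65, against 4.02 in the 117. The choice of the 33 favours a larger ratio, since their higher dicot straw was at least 2-fold above the lower, which itself cleared the limit. The difference between the 2 sets was not tested. Oat was above triticale in 105 of the 117 (89.7%) and in 30 of the 33 (90.9%), and at least 2-fold higher in 40 (34.2%) and 9 (27.3%). The mirror rule for the cereal straws, with oat and triticale within 2-fold of each other, chose 82 genes (0.996% of those tested). Those 82 held 1.01% (canola) and 0.831% (flax) of reads, against 4.81% (oat) and 4.84% (triticale). The genes alike on both dicot straws thus carried a smaller part of the dicot transcriptome than their cereal counterparts did of the cereal transcriptome. The highest level in the 82 was 3481 (oat) and 4043 (triticale) FPKM, against 656 (canola) and 789 (flax) in the 117. How much of the share of the 82 rests on their most abundant genes was not computed. The median length of the 82 was 1356 bases, against 1945 in the 117.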

How the data were processed

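The authors deposited FPKM values of 4 libraries in 1 table, beside each gene's length in bases, per the file headers. How reads were aligned and counted, and on which genome build, is not given in the sources used here. FPKM times length was in every library a whole multiple of its smallest value (100% of values within 0.001 of a whole read), which gave reads per gene and library totals. Counting intervals are exact Poisson (values) and exact Clopper-Pearson (ratios and shares), at 95%; PCR copies are not independent molecules. Models were matched to RefSeq (assembly ASM22609v1) by the number in the locus tag: 9087 of 9110 matched, and all 117 members matched with equal lengths. RefSeq positions were used only for gene order and overlap; protein and promoter sequences were not used here, so the planned sequence features and lists by product were not evaluated. The kit is not stated to be stranded. Members, lists and comparisons were chosen with earlier results of these data known. With 1 library per straw no p-value is given. Named genes are the 12 widest gaps among members with at least 10 FPKM on both dicot straws, the 8 highest dicot means, those with a symbol, the 3 most and 3 least oat over triticale among members with at least 2 FPKM on the higher cereal straw, those nearest each limit, and members beside a member; MYCTH_2307981, MYCTH_2308119, MYCTH_2296305, MYCTH_2308692, MYCTH_2106821, MYCTH_2308489, MYCTH_2303755, the neighbours of one pair and the non-members of the stretch around MYCTH_81364 were chosen after their values were seen. Alternatives covered the pseudocount, the filter, scaling, trends with length and level, the fold limit, the band and each library left out; the trend with level, the removal of the median deviation and the range of oat levels were added after seeing the data. The code for the selection was checked on simulated data, which does not show how well the rule works on these libraries. Python 3.11.15, pandas 2.3.3, scipy 1.17.1 and statsmodels 0.14.6 were used.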

Additional observations from a re-analysis of the deposited data

How the results depend on the processing

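The number of members followed the settings of the rule. It was 29 with a pseudocount of 10, 77 with a mean of at least 10 FPKM, 15 at a 3-fold and 401 at a 1.5-fold limit. It stayed within 1.5 times of 117 under the other scalings (87 to 108), with a pseudocount of 0.1 (153), with no filter (117) and with a narrower (96) or no band (150). With median centring 93 of the 117 were kept, with upper-quartile scaling 94, with the length trend removed 87 and with the level trend removed 87. With 1 library left out the rule has fewer values to clear and can only keep or add genes. The counts were 1235 without oat, 129 without triticale, 369 without canola and 519 without flax. In the last 2 settings the band fell away too, so they compare with the 150 chosen with no band. The number of members at least 2-fold higher on oat than on triticale followed the settings too. It was 6 with a pseudocount of 10 (20.7%, against 1.42% of all genes tested) and 70 with 0.1 (45.8%, against 19.6%). Median centring gave 8, and upper-quartile scaling 26 (27.4%, against 13.2%). It was 11 with the length trend removed (12.6%, against 5.76%) and 15 with the level trend removed (16.5%, against 4.70%). With the median deviation removed it was 21 (19.4%, against 7.98%). At a 3-fold limit it was 3 of 15 (20%) and at a 1.5-fold limit 147 (36.7%), both against 14.2%. Leaving out canola gave 88 (23.8%) and leaving out flax 153 (29.5%), again against 14.2%. Library medians stood at -0.28 (triticale) and 0.07 to 0.12 (the other libraries) from their mean on the log2 scale. With median centring 8.51% of members and 3.85% of all genes tested passed, so the members' share stayed above that of all genes. No paired analysis was possible because each straw has 1 library. The share of members with a hydrophobic N-terminal stretch was not run, since protein sequences were not used here. Depth limits the cereal levels of the 24 members with under 20 reads.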
